A study of Mus musculus with 7 samples.

Results

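A set of 7 genes that B cells switch on in the germinal centre was followed through every library of this study: Rgs13, Mef2b, Gcsam, Bcl6, S1pr2, Mybl1 and Nuggc. They were picked by symbol as germinal centre B-cell regulators, with their values in these same libraries already known, and all 7 were found among the 21176 genes of the deposited table. Because the choice drew on the contrast between the genotypes, the differences given below for these 7 genes are a description and carry no test.

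The libraries came from follicular dendritic cells (FDCs), the stromal cells that hold antigen in B-cell follicles, which had been sorted by FACS from lymph nodes of the popliteal region. The groups were 4 wild-type libraries (WT, n = 4) and 3 libraries from mice without Ngfr, the gene of the p75 neurotrophin receptor (Ngfr KO, n = 3). All mice were males aged 8 to 12 weeks that had not been immunized, and each library pooled the nodes of several animals. The Ngfr allele, the sorting gate and the number of animals per pool are not given in the sources used here. Values are read counts scaled by 1 factor per library, called normalised values here; 3 reads, the limit that a count of 0 allows, were worth 0.0102 to 0.0130 depending on the library.

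The germinal centre is the part of a follicle where activated B cells divide, mutate their antibody genes and are selected on antigen displayed by FDCs. BCL6, a transcriptional repressor, is required for B cells to enter this state. MEF2B is a transcription factor that activates Bcl6 in these cells, and MYBL1 (A-MYB) is a MYB-family factor of dividing germinal centre B cells. S1PR2, a receptor for sphingosine-1-phosphate, keeps B cells inside the germinal centre, RGS13 shortens G-protein signals such as those of chemokine receptors, GCSAM is an adaptor that acts on B-cell motility and antigen receptor signalling, and NUGGC is a nuclear GTPase of germinal centre B cells.

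Recovered reads per library numbered 17244925 to 18873542 for WT and 20741770 to 21538400 for Ngfr KO, so every Ngfr KO library was the deeper. Ngfr itself ranged from 0.377 to 1.30 across the WT libraries and from 0.184 to 0.353 across the Ngfr KO libraries and the groups did not overlap; reads summed over the whole gene cannot tell where in Ngfr the remaining signal lies. FDC genes were present throughout: the summed value of 16 of them ran from 1837 to 5149 over the WT libraries and from 8015 to 10534 over the Ngfr KO libraries. The summed value of 10 endothelial genes ran the other way, from 110 to 153 over the WT libraries and from 26.5 to 48.1 over the Ngfr KO libraries. The part of these shifts in the results below was not tested. In libraries of pooled sorted cells, fewer cells of a type and less RNA per cell cannot be told apart.

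The 7 regulators fell into different patterns. Rgs13 and Gcsam were at or under 3 reads in most WT libraries, and Mef2b had 13 or fewer in each. Rgs13, Mef2b and Gcsam held 97 or more reads in each Ngfr KO library. Nuggc had the same outline at lower levels, with 1 WT library inside the Ngfr KO range. S1pr2 and Bcl6 were well covered in every library of both genotypes, and Mybl1 was near the floor nearly everywhere. WT replicate 4 held 434 reads of S1pr2 and 103 of Bcl6, where Rgs13, Mef2b, Gcsam and Nuggc together had 1. Which cells the S1pr2 and Bcl6 reads came from was not tested.

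**Figure D1:**
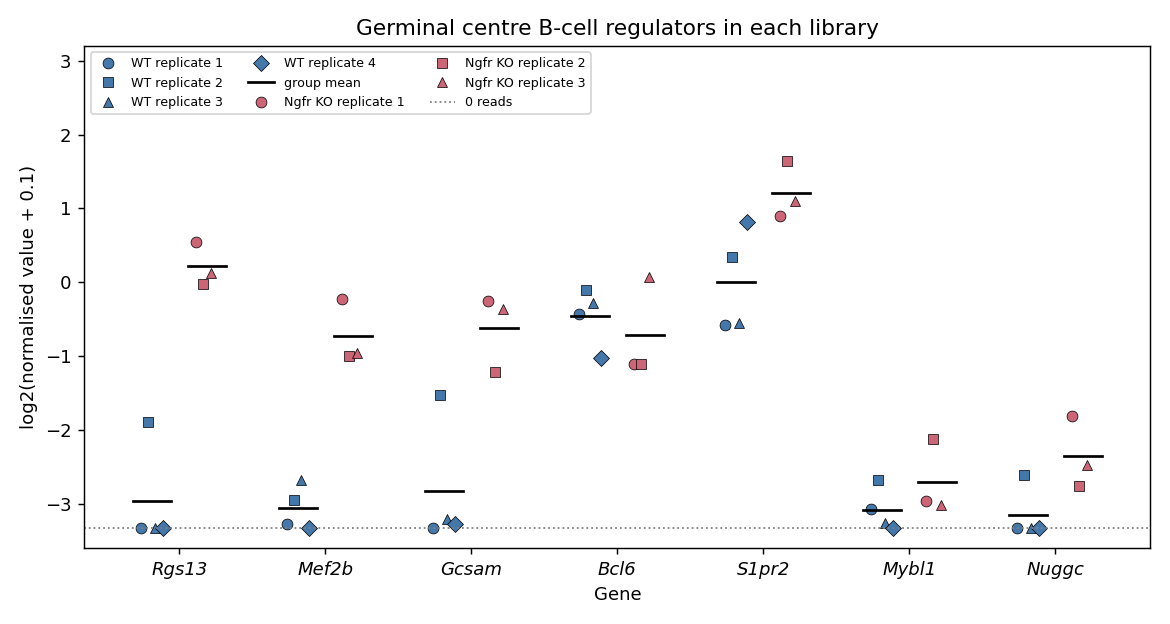
Normalised value of each of the 7 regulators in every library, on a log2(value + 0.1) axis, with WT in blue, Ngfr KO in red, 1 symbol per replicate number, black bars at the group means and a dotted line at 0 reads. For Rgs13, Mef2b, Gcsam and S1pr2 all 3 Ngfr KO points lie above all 4 WT points, and WT replicate 2 stands above the other WT replicates for Rgs13, Gcsam and Nuggc.

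Rgs13 (ENSMUSG00000051079, GRCm38 chromosome 1, 144138654 to 144177372, minus strand) had no read in WT replicates 1, 3 and 4 and 45 reads in WT replicate 2. The Ngfr KO libraries held 375, 260 and 248 reads. Normalised values were 0, 0.168, 0 and 0 in WT and 1.36, 0.882 and 0.993 in Ngfr KO. Every Ngfr KO library was thus above the WT library that had any signal, and the WT mean rests on that library alone. The WT mean was 0.0421 ± 0.0842 (SD, n = 4) and the Ngfr KO mean 1.08 ± 0.25 (SD, n = 3). On the log2(value + 0.1) scale this was a difference of 3.18 (SE 0.42). With so few WT reads the size of this change depends on the pseudocount; it was 3.54 without WT replicate 2 and 4.71 in edgeR.

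Mef2b (ENSMUSG00000079033, GRCm38 chromosome 8, 70139711 to 70167488, plus strand) had 1, 8, 13 and 0 reads in WT replicates 1 to 4 and 209, 118 and 104 reads in Ngfr KO replicates 1 to 3. Its values were 0.00389, 0.0299, 0.0565 and 0 in WT and 0.758, 0.400 and 0.416 in Ngfr KO. The lowest Ngfr KO value lay well above the highest WT value, and here the highest WT library was replicate 3. The mean rose from 0.0226 ± 0.0262 (SD, n = 4) to 0.525 ± 0.202 (SD, n = 3), a log2 change of 2.33 (SE 0.36) on the log2(value + 0.1) scale. The Mef2b gene model overlaps Borcs8, a neighbour on the same strand, in 62 exon bases, 4.42% of the exon length of Mef2b. Borcs8 itself ranged from 1.99 to 2.24 across WT libraries and from 2.02 to 3.58 across Ngfr KO libraries. How reads in the shared bases were assigned is not given in the sources used here.

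Gcsam (ENSMUSG00000022659, GRCm38 chromosome 16, 45610380 to 45622867, plus strand) had 0, 66, 2 and 1 reads in WT replicates 1 to 4 and 203, 97 and 169 reads in Ngfr KO replicates 1 to 3. Its values were 0, 0.247, 0.00869 and 0.00381 in WT and 0.736, 0.329 and 0.677 in Ngfr KO. WT replicate 2 came close to the lowest Ngfr KO library without reaching it. The log2 change was 2.22 (SE 0.48) on the log2(value + 0.1) scale, and 2.65 without WT replicate 2.

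Nuggc (ENSMUSG00000061356, GRCm38 chromosome 14, 65598546 to 65648531, plus strand) had no read in WT replicates 1, 3 and 4, 17 reads in WT replicate 2, and 51, 14 and 20 reads in Ngfr KO replicates 1 to 3. Its values were 0, 0.0636, 0 and 0 in WT and 0.185, 0.0475 and 0.0801 in Ngfr KO. The groups overlapped, because WT replicate 2 was above Ngfr KO replicate 2. By counting error alone, the 17 and 14 reads of these libraries have exact Poisson 95% intervals of 9.90 to 27.2 and 7.65 to 23.5 reads, so their order is not resolved at this depth.

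S1pr2 (ENSMUSG00000043895, GRCm38 chromosome 9, 20962361 to 20976781, minus strand) was the best covered of the 7 genes, with 134 to 434 reads per WT library and 485 to 889 per Ngfr KO library. Its values were 0.572, 1.16, 0.582 and 1.66 in WT and 1.76, 3.02 and 2.05 in Ngfr KO. The 2 ranges stayed apart, but WT replicate 4 nearly met Ngfr KO replicate 1. The mean went from 0.993 ± 0.521 (SD, n = 4) to 2.27 ± 0.66 (SD, n = 3), a log2 change of 1.21 (SE 0.36) on the log2(value + 0.1) scale.

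Bcl6 (ENSMUSG00000022508, GRCm38 chromosome 16, 23965052 to 23988852, minus strand) had values of 0.646, 0.835, 0.721 and 0.393 in WT and 0.363, 0.366 and 0.949 in Ngfr KO, from 100 to 237 reads per library. The lowest and the highest of the 7 values were both in Ngfr KO, and the groups overlapped. The log2 change was -0.26 (SE 0.37) on the log2(value + 0.1) scale. It was -0.65 without Ngfr KO replicate 3, the library with the highest value, and -0.06 without Ngfr KO replicate 1.

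Mybl1 (ENSMUSG00000025912, GRCm38 chromosome 1, 9667415 to 9700209, minus strand) had 5, 15, 1 and 0 reads in WT replicates 1 to 4 and 8, 38 and 6 reads in Ngfr KO replicates 1 to 3. Its values were 0.0195, 0.0561, 0.00435 and 0 in WT and 0.0290, 0.129 and 0.0240 in Ngfr KO. The groups overlapped, and a difference in Mybl1 was not detectable at this depth.

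Of the 7 regulators, 4 had every Ngfr KO library above every WT library (Rgs13, Mef2b, Gcsam and S1pr2), a pattern shown by 12.5% of all 21176 genes. No regulator had every Ngfr KO library below every WT library, against 13.1% of all genes. The limma fit over 14592 genes that reached 0.1 in 3 or more libraries included 5 of the 7. It called those same 4 higher in Ngfr KO, where it called 11.0% of all genes tested higher. The edgeR test on the recovered reads included 6 and called 2 of them, Rgs13 and Mef2b, higher, against 8.67% of the genes it tested. Mef2b entered the limma fit only through its Ngfr KO values, Rgs13 and Gcsam through these and WT replicate 2, and Mybl1 and Nuggc did not enter it, so the counts of called regulators support nothing about the group.

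Levels of different genes are comparable only per length, so values were divided by the exon length of each gene. In Ngfr KO, Rgs13 had the highest level per kb of exon, 0.652 ± 0.151 (SD, n = 3), followed by Mef2b at 0.374, S1pr2 at 0.285, Gcsam at 0.170, Bcl6 at 0.0835, Nuggc at 0.0367 and Mybl1 at 0.0112. Rgs13 was above Mef2b, S1pr2 above Gcsam and Gcsam above Bcl6 in all 3 Ngfr KO libraries. Mef2b and S1pr2 changed places in 1 of the 3, as did Bcl6 and Nuggc, and Nuggc and Mybl1. In WT the order was another one. S1pr2 led with 0.125 ± 0.065 per kb (SD, n = 4) and Bcl6 followed with 0.0968 ± 0.0280, a pair whose order held in only 2 of 4 libraries, while Rgs13, Gcsam, Mef2b, Nuggc and Mybl1 had means of 0.0254 or less and changed places among themselves.

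**Figure D2:**
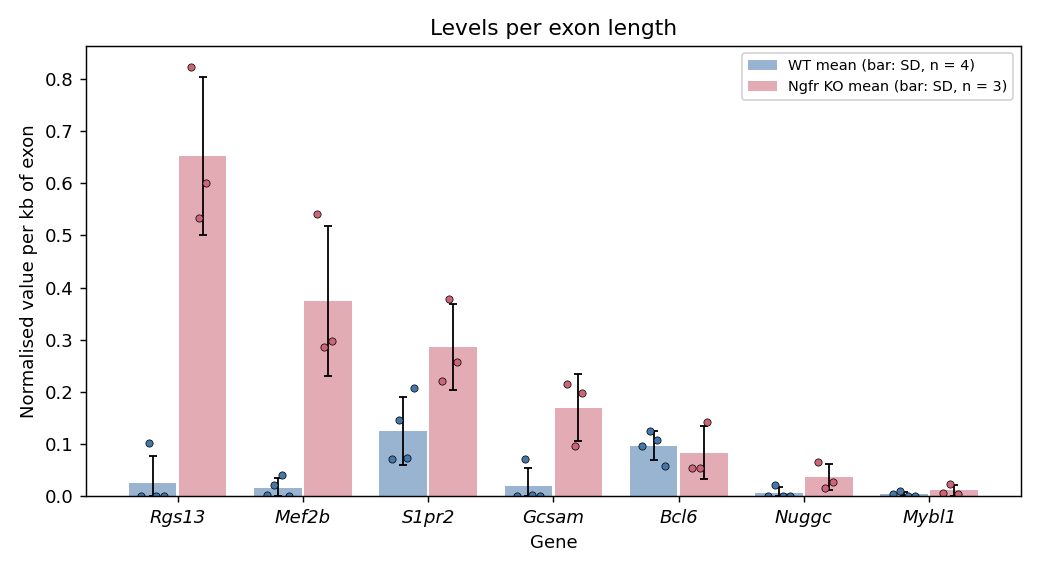
Normalised value per kb of exon for each regulator, with bars for the group means, whiskers for the SD (cut at 0), points for the libraries, WT in blue (n = 4) and Ngfr KO in red (n = 3). Rgs13 stands highest in Ngfr KO at 0.652, while S1pr2 and Bcl6 stand highest in WT at 0.125 and 0.0968.

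Rgs13 and Mef2b, with the largest log2 changes of the 7 genes, and Bcl6, whose values overlapped, are shown by the 250 bases before their RefSeq start (GRCm38.p6, gene strand). RefSeq promoters were matched for 5 of the 7 genes, Bcl6 with 2 starts. Capitals mark the matches, on either strand, to any of these motifs: the octamer ATGCAAAT, read by OCT2 with its B-cell coactivator OBF1, TTCNNNGAA, read by BCL6 and STAT factors, the E2A E-box CAGGTG, and the TATA box TATAAA. No motif contains another. The Rgs13 window is chr1:144177373-144177622 (minus strand), the Mef2b window chr8:70152511-70152760 (plus strand), and the Bcl6 window, at the inner of its starts, chr16:23981284-23981533 (minus strand).
Rgs13: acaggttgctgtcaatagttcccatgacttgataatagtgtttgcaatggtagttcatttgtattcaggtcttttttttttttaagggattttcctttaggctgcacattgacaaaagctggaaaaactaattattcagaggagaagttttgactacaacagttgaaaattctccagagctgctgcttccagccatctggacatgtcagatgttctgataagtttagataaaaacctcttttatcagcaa
Mef2b: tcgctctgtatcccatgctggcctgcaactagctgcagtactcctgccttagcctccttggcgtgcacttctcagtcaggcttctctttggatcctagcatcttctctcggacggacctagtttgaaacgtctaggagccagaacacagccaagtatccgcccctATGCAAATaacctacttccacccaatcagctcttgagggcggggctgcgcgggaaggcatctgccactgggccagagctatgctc
Bcl6: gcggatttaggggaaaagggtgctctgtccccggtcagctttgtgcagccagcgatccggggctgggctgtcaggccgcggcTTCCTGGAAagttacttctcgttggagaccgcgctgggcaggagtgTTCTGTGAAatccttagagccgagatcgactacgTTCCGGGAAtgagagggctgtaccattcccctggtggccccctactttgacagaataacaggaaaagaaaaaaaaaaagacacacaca
The Mef2b window holds the octamer with its first base 85 bases before the start, a match present in 1.60% of 32851 promoter windows of the same length. This start lies 13050 bases inside the longer GENCODE gene model, past the bases shared with Borcs8. The inner Bcl6 window holds 3 matches to TTCNNNGAA, 168, 122 and 88 bases before the start, where 7.02% of all windows have at least 1. This inner start lies 7569 bases inside the GENCODE gene model. The window of the outer start, which is the GENCODE gene start, is not shown and holds 1 match, 118 bases before it. The E-box and the TATA box, present in 17.2% and 12.4% of all windows, have no match in the 3 windows shown. The Rgs13 window holds none of these motifs. The matches are descriptions of sequence, not evidence of binding.

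Pan-B-cell genes, which are not limited to germinal centre B cells, were measured to set the regulators beside the total B-cell signal. All 13 listed genes, among them the transcription factor gene Pax5, had at least 22 reads in every library. Their summed value was 19.6, 28.3, 19.96 and 24.3 in WT replicates 1 to 4 and 30.5, 42.5 and 16.4 in Ngfr KO replicates 1 to 3, so the genotypes overlapped and Ngfr KO replicate 3 was the lowest of all. Ebf1, a gene of the list, ran against this sum, with its highest value, 4.66, in Ngfr KO replicate 3. Whether the reads of the listed genes came from B cells alone was not tested. limma called 0 of the 13 higher and 1 lower, where 22.2% of all genes tested were called in either direction. edgeR gave the same counts, and DESeq2 called 1 higher and 1 lower. At an unadjusted p under 0.05 limma and edgeR each had 1 higher and 1 lower, where limma had 5443 of all 14592 genes in either direction. Ms4a1, which encodes CD20, had a log2 change of 1.05 (limma adjusted p = 0.0689) with overlapping groups; limma called it without WT replicate 2 (adjusted p = 0.0468) or Ngfr KO replicate 3 (0.0151). Cd79a, a chain of the B-cell antigen receptor, had a log2 change of 0.20 (limma adjusted p = 0.687). The gene called lower was Ralgps2, a guanine nucleotide exchange factor gene (-1.29 on the log2 scale, SE 0.30, limma adjusted p = 0.0102).

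The summed value of Rgs13, Mef2b and Gcsam, chosen with their values known, was set beside the pan-B sum in each library. It was 0.00389, 0.445, 0.0652 and 0.00381 in WT and 2.85, 1.61 and 2.09 in Ngfr KO. As a percentage of the pan-B sum it came to 0.0198%, 1.57%, 0.327% and 0.0157% in WT and to 9.37%, 3.79% and 12.7% in Ngfr KO. Ngfr KO replicate 3, which had the lowest pan-B sum, had the highest percentage, and Ngfr KO replicate 2, which had the highest pan-B sum, the lowest of its group. In WT, replicate 2 had the highest pan-B sum of its group and also the highest percentage, but replicate 4, with the next highest pan-B sum, had the lowest percentage. In WT replicates 1 and 4 the pan-B genes were present while Rgs13, Mef2b, Gcsam and Nuggc together had 1 read in each library. With the mean of the pan-B genes as a covariate the log2 changes were 3.12 for Rgs13, 2.33 for Mef2b, 2.21 for Gcsam, 1.09 for S1pr2 and -0.12 for Bcl6, against 3.18, 2.33, 2.22, 1.21 and -0.26 without it. The part of total B-cell signal in these changes was not tested.

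**Figure D3:**
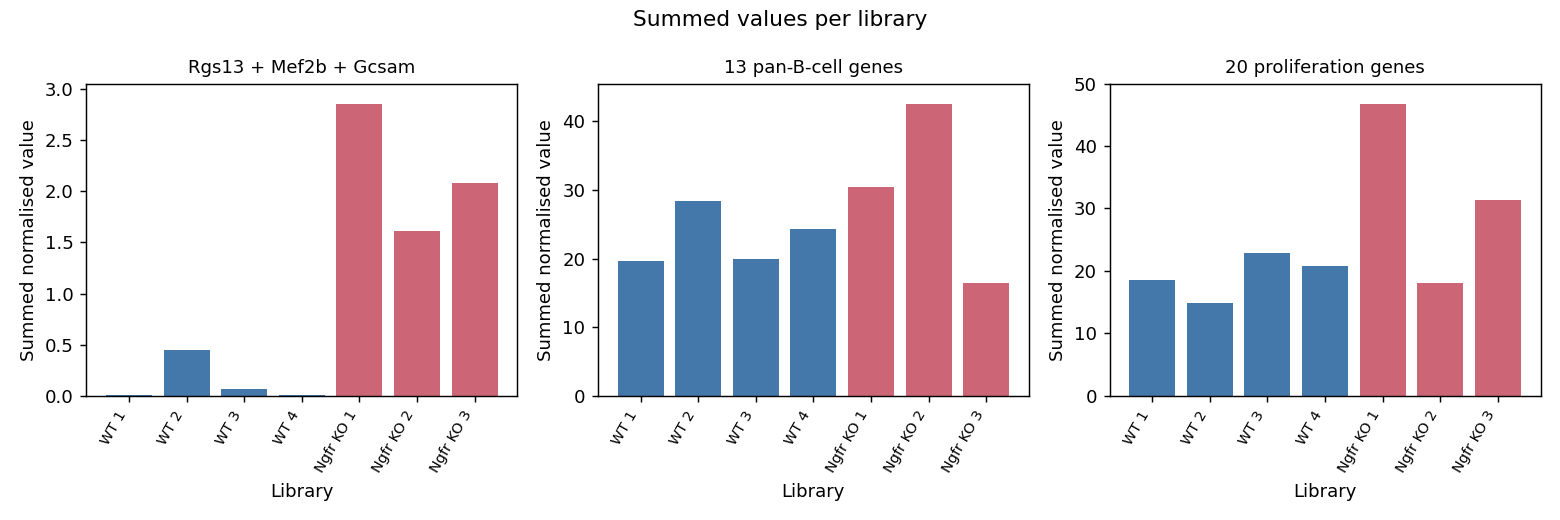
Summed normalised value, in each library, of Rgs13, Mef2b and Gcsam (left), 13 pan-B-cell genes (middle) and 20 proliferation genes (right), with WT in blue and Ngfr KO in red and every axis starting at 0. The 3 regulators sum to 1.61 or more in each Ngfr KO library and to 0.445 or less in each WT library, while the pan-B sums overlap.

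Other genes of the germinal centre programme were taken from a list of 14, all of which entered the limma fit. limma called 4 higher (against 11.0% of all genes tested) and 1 lower (against 11.3%), and 9 were not called; 1 of those called higher entered the fit only through its Ngfr KO values. Their median log2 change was 0.78, against -0.04 over all genes tested. Eaf2, an elongation factor partner expressed in germinal centre B cells, rose from 0.127 ± 0.017 (SD, n = 4) to 0.529 ± 0.309 (SD, n = 3; limma adjusted p = 0.0210). Pou2af1, the coactivator OBF1, rose from 0.2005 ± 0.0443 (SD, n = 4) to 0.524 ± 0.040 (SD, n = 3; limma adjusted p = 0.0294). limma did not call Eaf2 without Ngfr KO replicate 1 (adjusted p = 0.112), nor Pou2af1 without any 1 of WT replicates 1 and 2 and the 3 Ngfr KO libraries (adjusted p = 0.0523 to 0.0971).

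Both Fas and Lmo2, called in that list as well, are also expressed by other cells. Fas, a death receptor found on many cell types, lay between 3.48 and 9.86 in WT and between 34.3 and 39.1 in Ngfr KO, which is 2.30 higher on the log2 scale (SE 0.31, limma adjusted p = 9.30e-04). Lmo2, a transcriptional cofactor of germinal centre B cells and also of endothelium, fell from 2.42 ± 0.40 (SD, n = 4) to 0.4745 ± 0.0890 (SD, n = 3; limma adjusted p = 6.70e-04). In the same libraries 9 of 10 endothelial genes were called lower. Ezh2, a histone methyltransferase of dividing B cells, had a log2 change of 0.93 (limma adjusted p = 0.132), and Il21r, the receptor for the T-cell cytokine interleukin 21, one of -0.64 (limma adjusted p = 0.110). The count of 5 called genes was 2 without Ngfr KO replicate 1 and 3 without Ngfr KO replicate 2 or replicate 3.

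**Figure D4:**
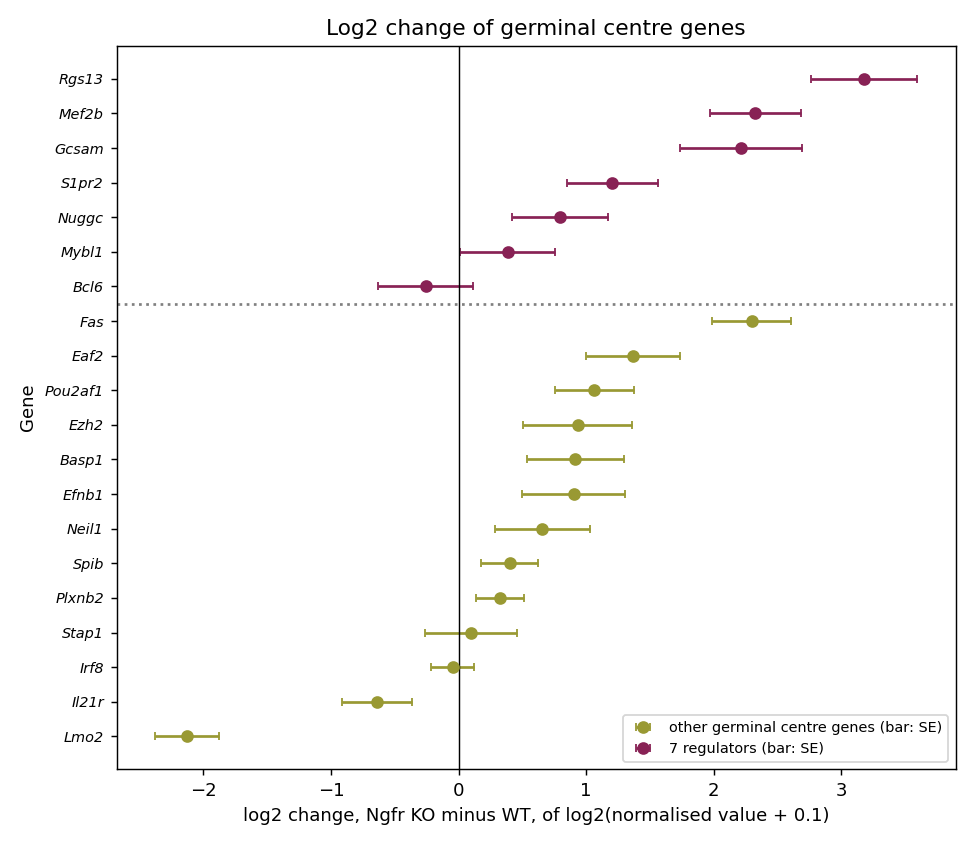
Log2 change, Ngfr KO minus WT, on the log2(value + 0.1) scale with its standard error, for the 7 regulators (purple) and 13 of the 14 other germinal centre genes (olive). Rgs13 lies farthest to the right at 3.18 and Lmo2 farthest to the left at -2.13, and Bcl6 lies near 0 at -0.26.

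Proliferation genes were measured because germinal centre B cells divide fast. Of 20 genes, all tested, limma called 13 higher and 0 lower in Ngfr KO, against 11.0% of all genes tested higher, with a median log2 change of 1.61. edgeR called 8 higher, against 8.67% of the genes it tested. Of the 13, 5 (Aurka, Aurkb, Bub1, Ccnb1 and Plk1) were under 0.1 in every WT library and entered the fit only through their Ngfr KO values, so they had to differ. limma called 4 of them without Ngfr KO replicate 1 and 6 without Ngfr KO replicate 3. The mitotic cyclin gene Ccnb1 went from values of 0.00435 to 0.0856 in WT to 2.68, 0.410 and 0.713 in Ngfr KO. Its log2 change of 3.08 (SE 0.51) is a description, since it entered the fit only through its Ngfr KO values. Ube2c, Cdk1 and Birc5, which act in mitosis, rose by 2.55, 2.43 and 2.31 on the log2 scale (limma adjusted p = 0.00643, 0.00455 and 0.00480). With a pseudocount of 1 the log2 changes of Ccnb1, Ube2c, Cdk1 and Birc5 were 1.01, 1.04, 1.20 and 0.80, and in edgeR they were 5.54, 3.78, 2.89 and 3.27. The summed value of the 20 genes was 18.5, 14.8, 22.9 and 20.8 in WT and 46.7, 18.05 and 31.4 in Ngfr KO. Ngfr KO replicate 1 was highest and replicate 2 lowest of its genotype both in this sum and in the sum of Rgs13, Mef2b and Gcsam. WT replicate 2, the WT library with most regulator reads, had the lowest proliferation sum of all 7. Pcna and Stmn1, neither of them called, were the largest terms of this sum in every library, at 6.65 and 3.99 in WT replicate 2. The overlap of this sum between the genotypes therefore largely follows these genes. They were at 12.0 and 6.99 in WT replicate 3 and at 6.79 and 3.02 in Ngfr KO replicate 2. The order within Ngfr KO does not rest on them alone. Ube2c, Cdk1 and Ccnb1 were at 3.51, 3.78 and 2.68 in replicate 1, against 0.512, 1.09 and 0.410 in replicate 2. Which cells the mitotic transcripts came from was not tested.

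Genes that act with BCL6 or under it were counted beside the 22.2% of all genes that limma called in either direction. Of 4 genes of its corepressors, limma called Ncor1 lower (log2 change -0.91, SE 0.23, limma adjusted p = 0.0163) and none higher; Ncor1 was not called without Ngfr KO replicate 2 (adjusted p = 0.0571). Of 5 genes that BCL6 is known to repress, limma, edgeR and DESeq2 called 0. At an unadjusted p under 0.05 limma had 3 lower and edgeR 1, where limma had 5443 of all 14592 genes in either direction. Those lower included Bcl2, an inhibitor of cell death, at a log2 change of -0.66 (limma adjusted p = 0.0993). Gpr183, a receptor that guides B cells to the edge of the follicle, was at -1.03 (limma adjusted p = 0.1004). Cdkn1a and Prdm1 went the other way, at 0.49 and 0.35 (limma adjusted p = 0.460 and 0.575). limma called Bcl2 without WT replicate 3 (adjusted p = 0.0327) and Gpr183 without WT replicate 1 (adjusted p = 0.0383). Of 6 genes that mark the dark or the light zone of the germinal centre, only Foxo1, a dark zone transcription factor that many cells express, was called, and it was lower by a log2 change of -1.74 (limma adjusted p = 7.53e-04). The chemokine receptor gene Cxcr4 had a log2 change of 0.49 (limma adjusted p = 0.312).

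Of 8 genes of the axis in which S1PR2 acts, limma called 3 higher and 3 lower, against 11.0% and 11.3% of all genes tested, and edgeR called 2 higher and 2 lower. S1pr3, another sphingosine-1-phosphate receptor, lay between 8.00 and 24.3 in WT and between 42.5 and 67.0 in Ngfr KO (log2 change 1.68, SE 0.34, limma adjusted p = 0.00529). Sphk1, a kinase that makes the ligand, was 1.10 higher on the log2 scale (limma adjusted p = 0.0387; edgeR adjusted p = 0.0653), and Sgpl1, the lyase that degrades it, was 0.68 higher (limma adjusted p = 0.0295). Spns2, the exporter of the ligand from endothelium, fell by 1.38 on the log2 scale (limma adjusted p = 0.00677), and Sphk2, the second kinase, by 1.14 (limma adjusted p = 0.0165). Arhgef1, which relays the signal of S1PR2 to RHOA, had a log2 change of -0.75 (limma adjusted p = 0.0360; edgeR adjusted p = 0.0567). The calls on Sphk1, Sgpl1 and Arhgef1 were each lost when any 1 of 5 or more libraries was left out, including each Ngfr KO library (limma adjusted p of 0.0545 to 0.166), and that on Sphk2 without Ngfr KO replicate 1 (0.0653). S1pr1, the receptor that opposes S1PR2 by drawing lymphocytes out of the follicle, had a log2 change of -0.50 (limma adjusted p = 0.0778).

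Relatives of the regulators from the same gene families were examined next. Of 9, limma, edgeR and DESeq2 each called 0 higher and 2 lower, and limma called 22.2% of all genes tested in either direction. At an unadjusted p under 0.05 limma had 2 higher and 3 lower, and edgeR 1 higher and 3 lower. Over all 14592 genes limma had 5443 at that level. Rgs16, of the same RGS subfamily as Rgs13, fell by 1.79 on the log2 scale (SE 0.37, limma adjusted p = 0.00605), and Mef2a fell by 0.87 (SE 0.21, limma adjusted p = 0.0133; 0.0622 without Ngfr KO replicate 2). Mef2c, a MEF2 factor of B cells and endothelium, had a log2 change of -0.37 (limma adjusted p = 0.181). Myb and Mybl2, the relatives of Mybl1, were 1.12 and 0.98 higher on the log2 scale, every Ngfr KO library being above every WT library, and neither was called (limma adjusted p = 0.0565 and 0.0804). limma called Myb without WT replicate 2 (adjusted p = 0.0333) and Mybl2 without WT replicate 4 (adjusted p = 0.0437). It also called both with quantile normalization (adjusted p = 0.0286 and 0.0351), and Myb with a pseudocount of 1 (0.0457) or median ratio scaling (0.0464); edgeR gave 0.146 and 0.218.

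Markers of other cells that germinal centres hold were compared as well. Of the T-cell and follicular helper list, 8 of 10 genes were tested by limma. limma, edgeR and DESeq2 called 0, and limma and edgeR had 0 at an unadjusted p under 0.05; the summed value lay between 1.93 and 5.97 in WT and between 2.49 and 6.36 in Ngfr KO. Of 5 plasma cell genes tested, limma called only Xbp1, a factor of secretory cells in general, higher (log2 change 0.97, SE 0.22, limma adjusted p = 0.00919). The summed value of the plasma cell list was 42.7 in WT replicate 3, 6.99 to 11.1 in the other WT libraries and 17.3 to 19.1 in Ngfr KO. Xbp1 made up most of the Ngfr KO sums, at 13.7, 16.2 and 13.6 in replicates 1 to 3, against 5.69 to 9.56 in WT. Macrophage genes differed in direction. The summed value of the 7 listed was 7.51, 3.77, 2.60 and 3.80 in WT and 9.84, 4.73 and 30.1 in Ngfr KO, highest in Ngfr KO replicate 3. Of 4 tested, limma called 1 higher and 1 lower (against 22.2% of all genes in either direction), and edgeR called 0 of 5, with 2 higher and 1 lower at an unadjusted p under 0.05. Lyz2, the lysozyme gene of myeloid cells, lay between 0.582 and 5.96 in WT and was at 9.19, 3.29 and 28.1 in Ngfr KO, so the groups overlapped (log2 change 2.11, limma adjusted p = 0.0467; 0.189 without Ngfr KO replicate 3). Its call was also lost without Ngfr KO replicate 1 or WT replicates 2, 3 or 4 (limma adjusted p = 0.0726 to 0.101). Cd68, a lysosomal gene of macrophages, was higher in every Ngfr KO library than in every WT library (log2 change 1.12, limma adjusted p = 0.0723). Mertk, a receptor for dying cells, was the gene called lower (log2 change -2.15, limma adjusted p = 0.00431; edgeR adjusted p = 0.111), and C1qa, a defining gene of resident macrophages, was at 0.0262 or less in every library. The part of macrophage transcripts in the results was not tested.

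Genes whose pattern over the 7 libraries was most like the mean standardised level of the 7 regulators were sought among 14568 other genes that passed the filter. The highest Pearson correlations were those of 4930520O04Rik (0.992), 3830406C13Rik (0.991), Zfp697 (0.986), Rabgap1l (0.986) and Mllt11 (0.982). A gene that separates the genotypes scores high here whatever else it does. After each group's mean was subtracted, the highest were Dmrta1 (0.979), 4930520O04Rik (0.975), Nme5 (0.972), Gm13470 (0.964) and Gm11110 (0.958), and each of these was highest in replicate 2 among the WT libraries, as the regulators were on average. 4930520O04Rik, in both sets, had values of 0.0350, 0.393, 0.0695 and 0.0572 in WT and 0.816, 0.566 and 0.849 in Ngfr KO. With 7 libraries and this many genes, high correlations arise often, and no test was made of them.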

How the data were processed

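RNA of sorted FDCs was sequenced in 7 pooled libraries after SMART-Seq v4 amplification and Nextera XT library preparation, per the labels' protocols. The submitters' processing notes name bcl2fastq 2.20.0.422 and the build mm10; aligner, counter and annotation are not given in the sources used here. The 1 table that the authors deposited holds a normalised signal for every gene, and its name calls this TMM (trimmed mean of M values). With a tolerance of 0.01 of a read, 100% of the values in every library were whole multiples of 1 step, so reads were recovered by division; a value of 1 was worth 230 to 295 reads. No length was divided out. The lowest total per gene over all libraries was 3 reads. Amplified reads without stated molecular identifiers are not independent molecules, so floors and Poisson intervals cover counting error only. Whether pools shared animals or preparation days is not stated, so p-values measure the spread between these libraries.

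Groups and replicate numbers came from the sample titles. Ngfr KO was compared with WT by limma 3.58.1 in R 4.3.3 (lmFit, eBayes with trend, no covariate) on log2(value + 0.1), over genes that reached 0.1 in 3 or more libraries, called at a Benjamini-Hochberg adjusted p under 0.05. A pseudocount of 1 was an alternative, since most regulators lie under it. Log2 changes refer to log2(value + 0.1) except where another tool is named, which understates the change of low genes; standard errors of Mybl1 and Nuggc come from the same fit with these genes added. edgeR 4.0.16 (quasi-likelihood) and DESeq2 1.42.0 were run on the recovered reads. Coordinates and exon lengths came from GENCODE M21 (GRCm38, the same assembly as mm10) by identifier, with 21137 of 21176 identifiers matched.

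The members and gene lists were chosen with earlier results of these data known. Named genes are all members; per list, up to 4 called genes with the largest log2 change among those with separated groups; list genes whose role is described; and the 5 genes most correlated with the members, before and after removal of group means. On simulated data with 200 genes changed 4-fold (5 simulations over 14391 to 14422 genes), limma recovered 75.8% and 6.34% of its calls were unchanged genes; with none changed it called 0. Values of 3 listed genes are not reported here, although list counts and sums include them.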

Additional observations from a re-analysis of the deposited data

Results flagged for a closer look

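In groups of 4 libraries, a library was singled out when its gap to the nearest of the others took more of the group's range than Dixon's 95% limit. Among 47 results examined in WT, 8 were singled out, where a rate of 1 in 20 would give 2.35. Genes of 1 cell type move together, so these are not 8 separate events. The rate holds for normally distributed values, and some of these lie near 0 reads, so 2.35 is only a rough guide. With 3 WT libraries at 0, as for Rgs13 and Nuggc, any read in the remaining library is singled out.

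WT replicate 2 stood apart in 3 of the regulators. Rgs13 was at 0.168 there and at 0 in the other WT libraries, Gcsam at 0.247 against 0.00869 or less, and Nuggc at 0.0636 against 0. The same library was low in the cell-cycle gene Cdk1, at 0.0674 against 0.351 to 0.409.

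WT replicate 1 had a Fas value of 3.48 against 9.28 to 9.86, and a Ccnb1 value of 0.0856 against 0.00435 to 0.0150. WT replicate 3 had a summed T-cell and follicular helper value of 1.93 against 5.61 to 5.97, and a summed plasma cell value of 42.7 against 6.99 to 11.1. What set these libraries apart was not tested.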

How the results depend on the processing

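The count of 3244 genes called (1602 higher, 1642 lower) stayed within 1.5 times under pseudocounts of 1 or 0.02, no filter, a filter at a value of 1, quantile or median ratio scaling, thinned reads, the pan-B score as covariate, edgeR (2551) and DESeq2 (4005). It was 1638 to 3571 with 1 library left out, lowest without Ngfr KO replicate 2; it was 2046 without WT replicate 1 and 1880 without Ngfr KO replicate 1. The count of 5 other germinal centre genes was 3 without a filter and 2, of 8 tested, with the filter at 1, and 2 to 6 with 1 library left out. The count of 13 proliferation genes was 8 in edgeR and 1 with the filter at 1, which tests fewer genes; that of 1 pan-B-cell gene was 2 in DESeq2 and with the replicate block, and that of 6 genes of the S1PR2 axis was 4 in edgeR, without a filter or with the replicate block and 2 to 6 with 1 library left out. The 2 family relatives called were 4 with quantile normalization, and the log2 changes of Ccnb1, Ube2c, Cdk1 and Birc5 depended on the pseudocount as those of the regulators did. The one named gene to change direction was Cd79a, not called in either case, whose log2 change was -0.19 without Ngfr KO replicate 2 (0.02 to 0.59 with another library left out). The log2 change of the regulators depended on the pseudocount: Rgs13 went from 3.18 to 0.99 with a pseudocount of 1 and to 4.95 with 0.02, Mef2b from 2.33 to 0.57 and 3.83, and Gcsam from 2.22 to 0.57 and 3.70. The regulators were chosen on this contrast, so the calls on them given here are a description and support nothing about the group. edgeR and DESeq2 each called 2 of the regulators higher: Rgs13 and Mef2b in the former, Mef2b and S1pr2 in the latter. edgeR called 8.67% of the genes it tested higher, and DESeq2 2093 of 17794. S1pr2 was not called without a filter, without WT replicate 1 or 3, or without Ngfr KO replicate 2 or 3.

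The replicate block, with the number of the titles as a term, called 3231 genes and 6 other germinal centre genes; Sgpl1 (limma adjusted p = 0.0818) and Arhgef1 (0.0605) were not called with it, Ms4a1 (0.0145) was, and no other call on a named gene changed. Same-numbered libraries deviated from their group means with correlations of 0.230, -0.00319 and 0.0332, so the numbers were not taken as pairs, and not every library correlated best with its own number. Depth limits Mybl1, Nuggc and the WT values of Rgs13, Mef2b and Gcsam, most of which rest on fewer than 20 reads.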
